A study of Mus musculus with 6 samples.

Results

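The interferon-stimulated genes are a fixed list of 32 genes that are widely used as readouts of type I interferon signalling, listed by name, with earlier results of these data known. They were found through the RefSeq accession of their array probes, and 30 of the 32 had a probe that matched. Mx1 and Mx2 had none and get no value here. All 30 matched genes were well above background on all 6 arrays and entered the comparison, among 18210 genes tested in all.

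The levels come from primary megakaryocytes, the large cells that shed platelets, cultured from E13.5 livers of C57BL/6 fetuses. The p45-/- group consists of 3 arrays, from cultures in which p45 is missing, the product of Nfe2 and the large chain of the DNA-binding dimer NF-E2. The WT group has 3 arrays from wild-type cultures of the same strain and age. The series' design speaks of 3 independent experiments, and the labels do not say how many embryos went into a culture. The labels' extraction protocol names whole embryos, whereas the source field names cultured megakaryocytes, and this contradiction is not resolved. No interferon, virus or other stimulus is named in the labels. A fetal liver culture can hold other blood cells, and in bulk RNA fewer cells of a type and less RNA per cell cannot be told apart.

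Type I interferons, the interferon-alpha proteins and interferon-beta, are secreted when a cell senses viral or misplaced nucleic acid. They bind the receptor chains IFNAR1 and IFNAR2, whose kinases JAK1 and TYK2 phosphorylate STAT proteins; STAT2 and IRF9 are part of the complex that binds the interferon-stimulated response element and switches on a broad set of antiviral genes. IRF7 is induced in this way and raises interferon production further, while USP18 damps signalling at the receptor. Megakaryocytes and platelets carry interferon receptors and antiviral proteins such as IFITM3.

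The core of the response element is a repeat of GAAA with a gap of 2 bases, and it was searched as GAAANNGAAA on both strands in RefSeq promoter windows of GRCm38.p6, 250 bases before to 50 bases after a gene's start. Matches may overlap each other, and overlapping matches were merged. A window was available for 24 of the 32 genes, and 14 of these 24, or 58.3%, held the motif, against 3.94% of 27001 other genes. The related motif TTCNNNGAA, which reads the same on both strands and is bound by STAT dimers, was in 6 of the 24, or 25%, against 9.54% of the other genes. A match is a run of letters and does not show that a factor binds there. For 7 of the 14 the motif stretch lies outside the whole annotated span of the gene, ahead of all its starts, and only these are shown. No sensor is among them, since the stretches of Ifih1, Ddx58 and Eif2ak2 do not lie wholly outside the gene span. The stretches shown run 5′ to 3′ along the gene's strand with the motif in capitals.
Isg15, chr4:156200850-156200921, minus strand: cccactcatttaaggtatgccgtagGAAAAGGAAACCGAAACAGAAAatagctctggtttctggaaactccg
Ifit1, chr19:34640760-34640838, plus strand: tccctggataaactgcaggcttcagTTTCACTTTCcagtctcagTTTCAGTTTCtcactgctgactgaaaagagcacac
Stat2, chr10:128270251-128270310, plus strand: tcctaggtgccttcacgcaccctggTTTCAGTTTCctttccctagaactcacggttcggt
Oas3, chr5:120777700-120777759, minus strand: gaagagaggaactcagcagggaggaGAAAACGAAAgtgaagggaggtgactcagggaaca
Rsad2, chr12:26456538-26456597, minus strand: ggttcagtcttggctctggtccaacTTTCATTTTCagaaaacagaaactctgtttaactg
Bst2, chr8:71537562-71537627, minus strand: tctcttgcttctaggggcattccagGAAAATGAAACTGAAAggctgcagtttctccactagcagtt
Gbp2, chr3:142620579-142620638, plus strand: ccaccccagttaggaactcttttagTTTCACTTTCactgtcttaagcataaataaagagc
Isg15 held 3 overlapping matches and Bst2 held 2, whereas Ifit1 held a pair set apart by other bases. Stat2, Oas3, Rsad2 and Gbp2 held 1 each.

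The interferon-stimulated genes averaged lower in p45-/- than in WT cultures for 30 of 30 genes, but none passed the test. A level here is the log2 processed signal minus the 75th percentile of its array, so that 0 is the brightness of the probe at that percentile. The median log2 difference, p45-/- minus WT, was -0.97 over the 30 genes and -0.05 over all genes tested. The differences ran from -1.65 for Usp18 to -0.29 for Irf9. With limma and Benjamini-Hochberg adjustment over all genes at a threshold of 0.05, 0 of 30 were called lower, against a background of 0% of all genes. The smallest adjusted p among them was 0.704 by limma. At an unadjusted limma p under 0.05 there were 2 of 30, Usp18 and Ddx58, beside 5.95% of all genes. With the replicate number as a block, 0 of 30 were again called, with a smallest adjusted p of 0.116 by limma for Zbp1, beside 0.0275% of all genes called lower in that fit. The block left 11 of 30 under an unadjusted 0.05, beside 20.3% of all genes.

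All p45-/- values lay below all WT values for 7 of the 30 genes, or 23.3%, against a background of 8.44% of all genes that did so in that direction. The 7 were Oas1a, Usp18, Ddx58, Dhx58, Ifitm3, Parp14 and Trim25. Values above those of WT without overlap were seen for 0 of 30, against 4.77% of all genes. For 3 arrays against 3 the smallest p of an exact two-sided permutation test is 0.1, which each of the 7 genes reached. The count of 7 rests on the scaling, since it was 1 after quantile normalization, beside 8.02% of all genes, and 25 after scaling to the array median, beside 11.7% of all genes. Under that second scaling the median over all genes tested was -0.56.

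**Figure D1:**
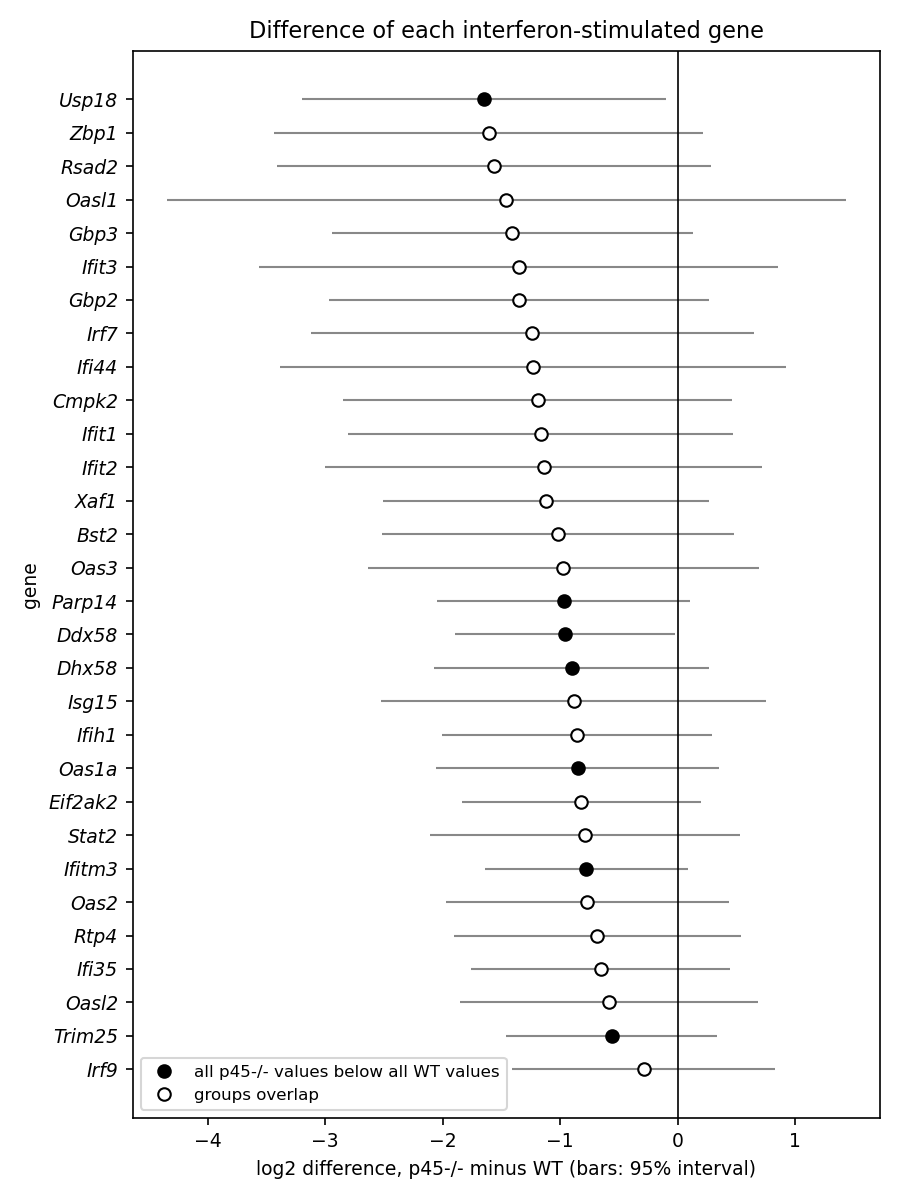
The log2 difference in level, p45-/- minus WT, is plotted for each of the 30 genes with its 95% interval from limma as a bar. Filled points are the 7 genes whose p45-/- values all lie below their WT values, and open points are genes whose groups overlap. Every point lies left of 0, and the intervals of Usp18 and Ddx58 alone do not reach 0.

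The transcription factors of the pathway come first. Irf9, the DNA-binding partner of STAT2, had levels of 3.79, 2.70 and 2.74 on p45-/- arrays 1, 2 and 3, against 3.99, 2.75 and 3.35 on WT arrays 1, 2 and 3. Its groups overlapped, and its difference of -0.29 (SE 0.47) became 0.02 without WT array 1. For Stat2 the p45-/- levels were 2.98, 3.23 and 2.59, against 4.89, 2.90 and 3.38 in WT. Irf7, which drives interferon-alpha genes, had 3.16, 2.24 and 1.31 in p45-/-, against 5.05, 2.62 and 2.74 in WT. In each of these 3 genes WT array 1 had the highest value, and at least 1 p45-/- value was above the lowest WT value. The differences were -0.79 (SE 0.55) for Stat2 and -1.24 (SE 0.79) for Irf7.

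The ISG15 system was measured by 2 genes. Isg15 encodes a ubiquitin-like protein that is secreted and also attached to other proteins. Its levels were 4.35, 4.58 and 4.13 in p45-/-, against 6.78, 4.06 and 4.87 in WT. The 3 p45-/- values were close together and enclosed by the WT values, whose range was 2.72. Usp18 encodes the protease that removes ISG15 and restrains receptor signalling. It had levels of 3.86, 3.78 and 2.85 in p45-/-, against 6.51, 4.25 and 4.68 in WT. Its groups did not overlap, with means of 3.50 ± 0.56 in p45-/- and 5.15 ± 1.20 in WT (SD, n = 3 each). The difference of -1.65 had a 95% interval of -3.20 to -0.10, which is a ratio of 3.13 when the geometric mean of WT is divided by that of p45-/-. The adjusted p of Usp18 was 0.704 by limma, and 0.136 with the replicate block. Without replicate 1 of both groups the difference was -1.15.

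The IFIT proteins bind foreign RNA and block its translation. Ifit1 had levels of 1.39, 1.70 and 0.63 in p45-/-, against 3.75, 1.15 and 2.32 in WT. The p45-/- levels of Ifit2 were 1.73, 1.21 and 0.88, against 4.05, 0.91 and 2.28 in WT. For Ifit3 they were 4.95, 3.77 and 3.49 in p45-/-, against 7.39, 3.83 and 5.04 in WT. All 3 were lowest on p45-/- array 3 and highest on WT array 1, and their groups overlapped. Their differences lay between -1.35 and -1.14. Ifit3 has a close copy, Ifit3b, so its probe may also report that gene.

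Among the 2′-5′ oligoadenylate synthetase family, whose active members make the signal that switches on RNase L, 5 genes were measured. Oas1a had levels of 4.06, 4.15 and 3.54 in p45-/-, against 5.81, 4.19 and 4.29 in WT. Its groups did not overlap, but p45-/- array 2 and WT array 2 were only 0.04 apart. The levels of Oas2 were 2.24, 2.33 and 1.81 in p45-/-, against 3.95, 2.22 and 2.51 in WT. Those of Oas3 were 1.33, 0.64 and 0.14 in p45-/-, against 3.17, 0.80 and 1.06 in WT. In both genes WT array 1 stood apart from the other 5 arrays. Oasl1, an OAS-like protein that in mice limits the translation of Irf7, had 3.20, 1.46 and 0.69 in p45-/-, against 5.85, 1.61 and 2.26 in WT. It had the widest WT spread of the 30 genes, an SD of 2.28, and the difference of -1.46 was smaller than this. Oasl2, its relative, had 3.80, 4.49 and 3.45 in p45-/-, against 5.51, 3.87 and 4.10 in WT. On replicate 2 it was higher in p45-/- by 0.62. Oas1a belongs to a cluster of near-identical copies, such as Oas1g, so its signal is uncertain in origin.

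Of the antiviral effectors, Rsad2 encodes viperin, which makes a nucleotide that ends viral RNA chains. Its levels were 4.17, 3.68 and 2.88 in p45-/-, against 6.81, 3.997 and 4.61 in WT. Only p45-/- array 1 reached into the WT range, and the difference was -1.56 (SE 0.77). Cmpk2, the neighbour of Rsad2 and a nucleotide kinase of mitochondria, had 1.56, 2.07 and 1.36 in p45-/-, against 4.31, 1.56 and 2.70 in WT. Bst2 encodes tetherin, which holds budding virus on the cell surface. It had levels of 6.12, 5.61 and 5.38 in p45-/-, against 8.11, 5.87 and 6.20 in WT. Ifitm3, a membrane protein that blocks virus entry, had the tightest p45-/- values of all 30 genes, at 5.63, 5.61 and 5.39, against 6.97, 5.99 and 6.00 in WT. Its groups did not overlap, and the difference was -0.78 (SE 0.36) and stayed below 0, at -0.50, without replicate 1 of both groups. The IFITM family has close copies, so the Ifitm3 probe may report some of them.

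The guanylate-binding proteins, GTPases that attack the vacuoles of intracellular pathogens and that interferon-gamma also induces, were represented by 2 genes. Gbp2 had levels of 0.54, 1.47 and 1.02 in p45-/-, against 3.70, 1.08 and 2.29 in WT. Gbp3 had 0.44, 1.75 and 1.19 in p45-/-, against 3.70, 1.45 and 2.45 in WT. In both genes the lowest array was p45-/- array 1, and on replicate 2 the p45-/- culture was higher, by 0.39 for Gbp2 and 0.30 for Gbp3. Their differences were -1.35 (SE 0.68) and -1.41 (SE 0.64). Gbp family members resemble each other, so these probes may share signal.

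The sensors of viral nucleic acid and their partners made up 6 genes. Ddx58 encodes RIG-I, Ifih1 encodes MDA5 and Dhx58 encodes LGP2, the cytosolic RNA helicases of the family. Ddx58 had levels of 0.40, 0.74 and 0.23 in p45-/-, against 2.01, 0.79 and 1.43 in WT. Its groups did not overlap, with a gap of 0.05 between p45-/- array 2 and WT array 2, and the difference of -0.95 had a 95% interval of -1.89 to -0.02. Ifih1 had 1.59, 2.48 and 1.69 in p45-/-, against 3.61, 2.10 and 2.63 in WT. Dhx58 had 2.37, 2.18 and 1.79 in p45-/-, against 4.02, 2.38 and 2.64 in WT. Dhx58 did not overlap, whereas Ifih1 did through p45-/- array 2.

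Trim25, a ubiquitin ligase that acts with RIG-I, had levels of 3.44, 3.87 and 3.95 in p45-/-, against 4.95, 3.95 and 4.04 in WT. Apart from WT array 1 and p45-/- array 1 its values lay close together, yet the groups did not overlap. Eif2ak2, which encodes the RNA-activated kinase PKR, had 0.84, 1.56 and 0.96 in p45-/-, against 2.57, 1.26 and 1.98 in WT. Zbp1, a sensor of Z-form nucleic acid that can start necroptosis, had 2.67, 0.96 and 1.97 in p45-/-, against 4.85, 2.16 and 3.41 in WT. Between same-numbered arrays Zbp1 differed by -2.18, -1.20 and -1.44 on replicates 1, 2 and 3, and its replicate 2 difference was the lowest of the 30 genes. Its difference was -1.61 (SE 0.76), and without replicate 1 of both groups it was -1.32, the largest of the 30 in that setting.

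The last 5 genes have varied roles. Parp14, an ADP-ribosyltransferase, had levels of 3.61, 3.59 and 3.35 in p45-/-, against 5.36, 3.75 and 4.34 in WT, with no overlap. Xaf1, a binding partner of the apoptosis inhibitor XIAP, had 1.66, 1.90 and 1.26 in p45-/-, against 3.97, 1.83 and 2.37 in WT. For Ifi44 the levels were -0.86, -1.33 and -1.53 in p45-/-, against 2.09, -1.56 and -0.54 in WT. In Xaf1 the groups overlapped through p45-/- array 2, and in Ifi44 all p45-/- values lay between those of WT arrays 2 and 3. Ifi44 on WT array 1 was 3.14 above the mean of the other WT arrays. Rtp4, a receptor-transporting protein, had 5.53, 5.31 and 4.96 in p45-/-, against 6.997, 5.19 and 5.65 in WT. Ifi35, a partner of NMI, had 3.02, 3.26 and 2.93 in p45-/-, against 4.69, 3.14 and 3.35 in WT. Both overlapped, with differences of -0.68 (SE 0.51) and -0.65 (SE 0.46).

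More than 1 probe was kept for 10 of the 30 genes, and every such probe was lower in p45-/- in its mean. Among probes well above background on all 6 arrays, those of Ifit2 lay furthest apart, at -1.64 and -1.14.

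**Figure D2:**
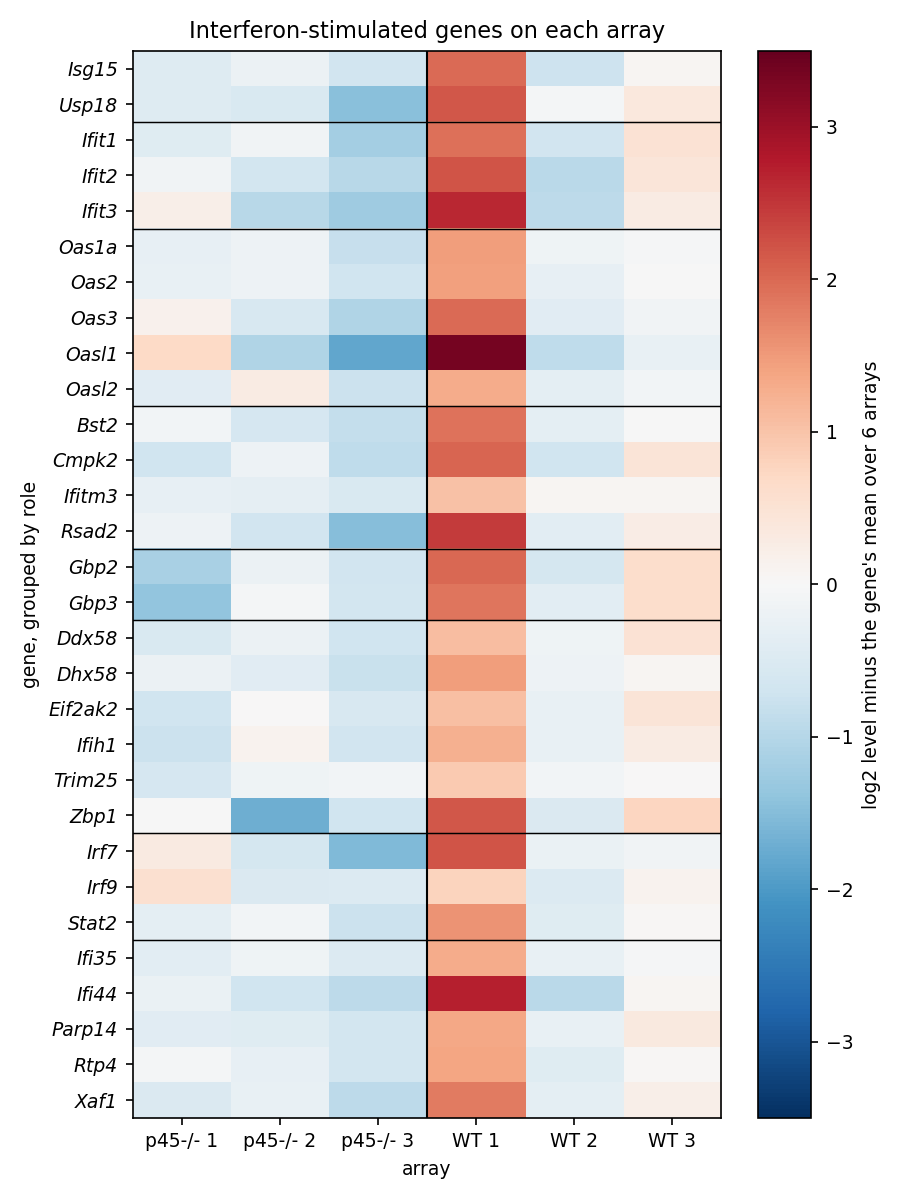
Each row is a gene, grouped by role, and each column an array; the colour is the log2 level minus the gene's mean over the 6 arrays. The column of WT array 1 is the highest in every row, and the column of p45-/- array 3 is the lowest in 21 of 30 rows.

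The spread of these genes lay mostly within the WT group. WT array 1 was the highest of the 6 arrays for 30 of 30 genes, whereas it was the highest for 17.5% of all genes tested. It exceeded the mean of WT arrays 2 and 3 by a median of 1.81 over the 30 genes and 0.09 over all genes, and by between 0.90 for Ddx58 and 3.91 for Oasl1. WT array 3 was above WT array 2 for 30 of 30 genes as well, against 52.5% of all genes. On the scaled levels the lowest array was p45-/- array 3 for 21 genes, p45-/- array 1 for 5, p45-/- array 2 for 2 and WT array 2 for 2. This order rests on the scaling. On the unscaled processed signals p45-/- array 1 was the lowest for every gene but Oasl1 and Zbp1. Isg15, for example, read 2755 there and 10280 on p45-/- array 3. The median of the 30 levels was 3.00, 2.41 and 1.89 on p45-/- arrays 1, 2 and 3, against 4.77, 2.50 and 3.04 on WT arrays 1, 2 and 3. In this median WT array 2 lay between p45-/- arrays 1 and 2. The median SD within p45-/- was 0.38 for these genes and 0.56 for all genes, whereas within WT it was 1.12 for these genes and 0.34 for all genes. The difference between groups was larger than the WT SD for 13 of the 30 genes, or 43.3%, against 58.0% of all genes.

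The place of WT array 1 was nearly the same on other scales. On the unscaled processed signals it was highest for 27 of 30 genes and for 6.998% of all genes. After quantile normalization it was highest for 29 of 30, and after median scaling or normexp background correction for 30 of 30. WT array 3 exceeded WT array 2 for 29 of 30 on the unscaled signals and for 24 of 30 after median scaling, beside 28.3% of all genes in that scaling.

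**Figure D3:**
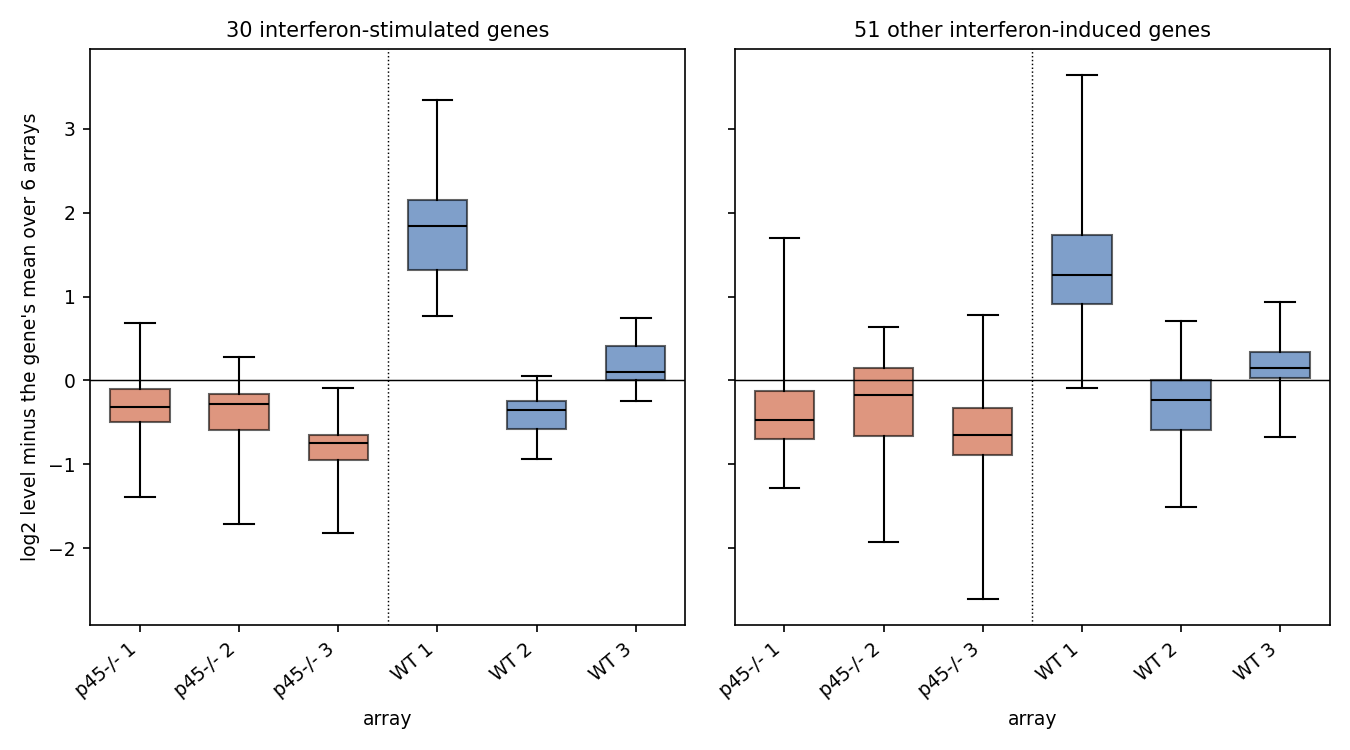
Boxes give the quartiles and median, and whiskers the lowest and highest gene, of the log2 level minus each gene's mean over 6 arrays, for the 30 interferon-stimulated genes and for 51 other interferon-induced genes. In both sets the WT array 1 box lies above the other 5 boxes.

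Same-numbered arrays were also set against each other, since the numbers were taken to pair the cultures. The median difference of the 30 genes, p45-/- minus WT, was -1.95 on replicate 1, 0.01 on replicate 2 and -0.99 on replicate 3. Over all genes these medians were -0.37, 0.12 and 0.06. On replicates 1 and 3 all 30 genes were lower in p45-/-, whereas on replicate 2 the split was 15 lower and 15 higher. The 15 genes lower on every replicate number include Usp18, Zbp1, Rsad2, Irf7 and Bst2. The size depended on WT array 1: without it the median difference was -0.38 and 29 of 30 genes were lower, with Irf9 at 0.02. Without replicate 1 of both groups the median was -0.49, 30 of 30 were lower and 0 were called by limma. Slide 1 held replicate 3 of both groups, and the within-slide median was -0.99 there and -0.96 on slide 2, which held replicates 1 and 2. Whether the array, the culture or the experiment carries the difference between replicate numbers cannot be told apart.

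**Figure D4:**
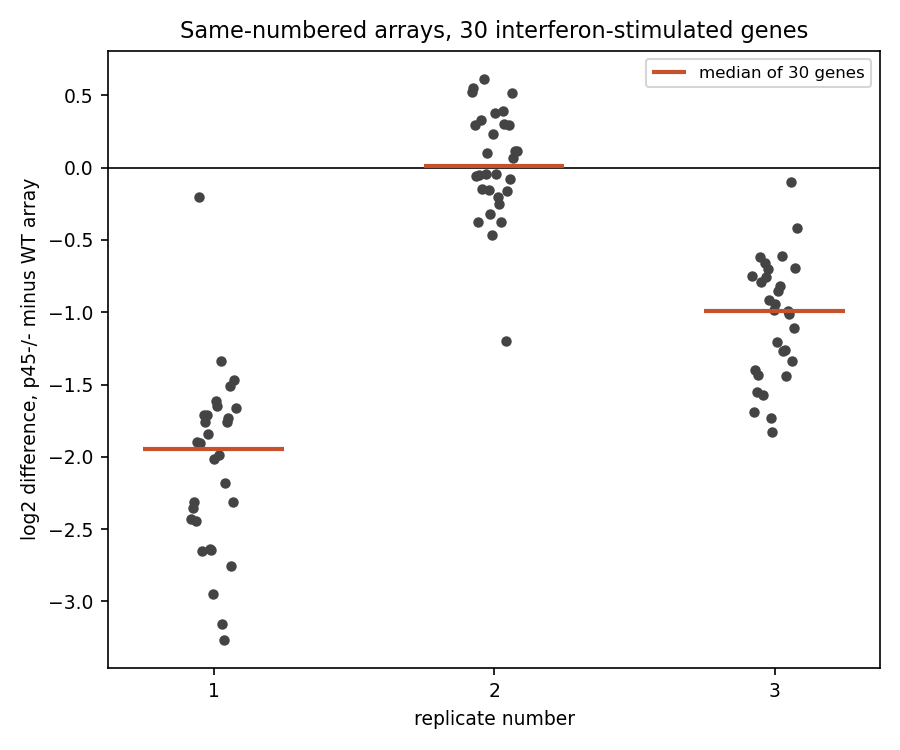
Points are the log2 differences of the 30 genes between the p45-/- and the WT array of the same replicate number, and bars are their medians. The medians are -1.95, 0.01 and -0.99, and the points of replicate 2 lie on both sides of 0.

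Upstream, the interferon genes themselves were measured in part. Of 20 listed ligand genes 11 had a matched probe and 6 were tested. Ifnb1, which encodes interferon-beta, was named after its values were seen. Its levels were -0.97, -2.52 and -2.91 in p45-/-, against 3.30, -3.74 and -2.60 in WT. On the unscaled signal it read 68.9, 71.2 and 78.4 in p45-/-, against 3334, 43.8 and 94.9 in WT. WT array 1 thus held 51.7 times the geometric mean of the other WT arrays, and each of the 6 arrays had this probe well above background. The group difference of -1.12 (SE 1.78) turned to 1.03 without WT array 1.

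Ifna12 and Ifna5, interferon-alpha genes, had differences of 1.38 each (SE 0.87), with an adjusted p of 0.704 by limma. Ifna5 was well above background on only 2 WT arrays. It passed the probe filter through p45-/- alone, which favours a higher p45-/- mean. Unscaled signals of the 5 Ifna genes tested ran from 33.0 to 81.3 in p45-/- and from 12.6 to 71.4 in WT. None of these genes was highest on WT array 1 over all 6 arrays. Within WT, however, all 5 were highest there, at 1.24 to 2.19 times the geometric mean of the other WT arrays. Their higher scaled levels on p45-/- array 1 go with the low 75th percentile of that array, 135. The Ifna genes are near-identical copies, and their probes cannot be assigned with certainty. Ifng, Ifne, Ifnk, Ifnl3 and Ifna4 were not well above background on any array.

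**Figure D5:**
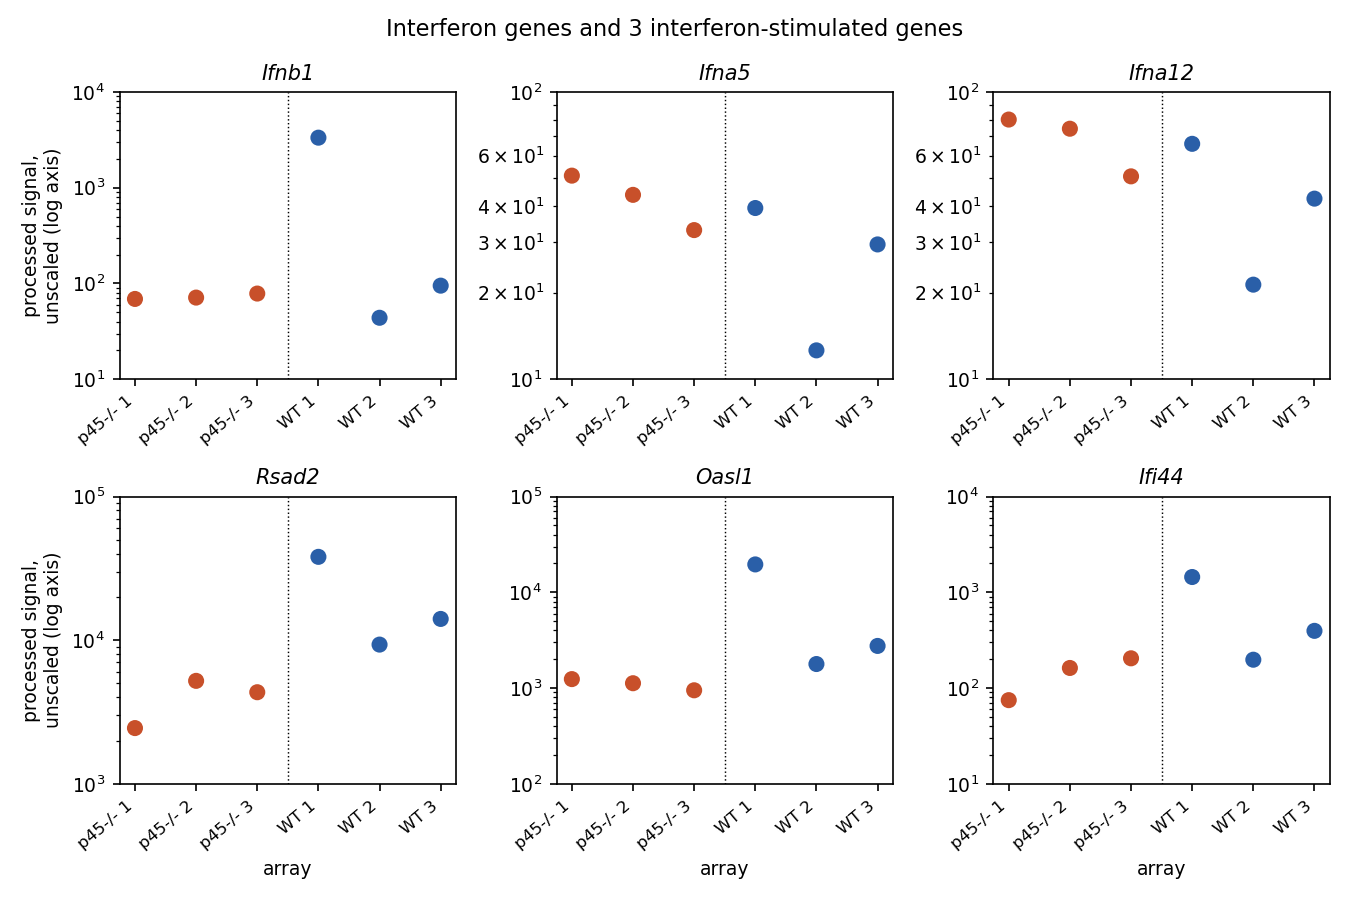
Unscaled processed signals of 3 interferon genes and 3 interferon-stimulated genes are plotted by array, each panel on its own log axis, with p45-/- arrays to the left of the dotted line. Ifnb1 stands at 3334 on WT array 1 and at no more than 94.9 on the other 5 arrays. Rsad2, Oasl1 and Ifi44 are also highest on WT array 1. Ifna5 and Ifna12 are highest on p45-/- array 1, and within WT they are highest on WT array 1.

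The receptors, kinases and factors that carry the signal were lower in mean in 16 of 16 tested genes, with a median of -0.56, and 0 were called by limma. Without WT array 1 the median was -0.30 and 15 of the 16 were lower. Without replicate 1 of both groups it was -0.22, with 14 of the 16 lower. Ifnar1, a receptor chain, had levels of 0.77, 0.86 and 1.39 in p45-/-, against 1.87, 1.11 and 1.45 in WT. Ifnar2, the other chain, had 2.53, 2.28 and 2.24 in p45-/-, against 3.85, 2.33 and 2.61 in WT. In both the groups overlapped. Irf1, a factor induced by interferon-gamma above all, had 3.33, 3.68 and 3.46 in p45-/-, against 5.44, 3.62 and 4.001 in WT. Irf1 again stood highest on WT array 1. The differences of the kinase genes Jak1 and Tyk2 were -0.54 (SE 0.37) and -0.43 (SE 0.32), and that of Irf3, which starts interferon-beta transcription, was -0.32 (SE 0.35). Irf2, an antagonist of IRF1, differed by -0.90 (SE 0.44). Ifngr1, a chain of the interferon-gamma receptor, differed by -0.70 (SE 0.35) without overlap.

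Nucleic acid sensing genes upstream of interferon were lower in mean in 20 of 21 tested, with a median of -0.32 and 0 called by limma. Tlr3, 1 of the 20, was well above background on only 2 p45-/- arrays and passed the probe filter through WT alone. Without WT array 1 only 14 of the 21 sensing genes were lower, with a median of -0.09. Without replicate 1 of both groups 11 of the 21 were lower, with a median of -0.10. Unc93b1, which carries the endosomal Toll-like receptors to their place, had levels of 4.04, 3.92 and 4.39 in p45-/-, against 5.91, 4.52 and 4.87 in WT. Adar, the RNA editing enzyme that keeps own RNA from being sensed, had 1.36, 1.08 and 0.92 in p45-/-, against 3.06, 1.5005 and 1.70 in WT. The groups of both did not overlap, and their differences were -0.98 (SE 0.43) and -0.97 (SE 0.47). Of 7 genes that restrain cytokine signalling 6 were lower in mean, with a median of -0.39 and 0 called by limma. Among them Pias1, an inhibitor of STAT signalling, differed by -0.46 (SE 0.33). Cish, a target of STAT5 that limits cytokine receptors, was the exception with a difference of 0.87 (SE 0.61), and its level on WT array 1, 1.77, was the lowest of all arrays. Without replicate 1 of both groups 4 of these 7 genes were lower, with a median of -0.03.

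A further list of 60 interferon-induced genes shared no gene with the 32 but was also written with earlier results of these data known. It gave 51 tested genes. Of these 50 were lower in mean, with a median of -0.82, and 0 were called by limma. Tlr3, 1 of the 50, again passed the probe filter through WT alone. All p45-/- values lay below all WT values for 17 of 51, or 33.3%, beside the 8.44% of all genes. WT array 1 was the highest array for 44 of 51. Without it the median of the list was -0.33 and 45 of 51 were lower. Without replicate 1 of both groups the median was -0.45 and 41 of 51 were lower. Mlkl, the executor of necroptosis, had levels of 0.65, 0.72 and 0.41 in p45-/-, against 2.96, 1.75 and 1.90 in WT. Isg20, an RNA exonuclease, had 2.83, 3.88 and 2.67 in p45-/-, against 5.35, 4.60 and 4.44 in WT. In both genes the groups did not overlap, and without WT array 1 the differences were -1.23 for Mlkl and -1.39 for Isg20. Their differences over all arrays were -1.61 (SE 0.40, adjusted p = 0.508 by limma) and -1.67 (SE 0.45, adjusted p = 0.569 by limma).

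The antigen presentation genes, which interferon-gamma in particular induces, were lower in mean in 16 of 18 tested, with a median of -0.55 and 0 called by limma. H2-T23, a nonclassical class I gene, had levels of 6.74, 6.70 and 6.18 in p45-/-, against 8.61, 6.96 and 6.84 in WT, with no overlap. Tapbp, the peptide-loading chaperone tapasin, had 4.23, 4.70 and 4.08 in p45-/-, against 5.77, 4.64 and 4.76 in WT. WT array 1 was the highest for 16 of the 18 genes, and without it the median was -0.11.

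Members with the GAAANNGAAA motif in a promoter window had a median difference of -0.96 (14 genes), and members with a window but no motif -1.13 (10 genes). Both sets were highest on WT array 1 for all their genes.

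Several features of the arrays moved with these results. The 75th percentile of the signal was 135, 407 and 589 on p45-/- arrays 1, 2 and 3, against 339, 583 and 575 on WT arrays 1, 2 and 3. Across genes p45-/- array 1 correlated with the others at 0.782 to 0.884, and the others with each other at 0.941 to 0.984. Nfe2 itself had levels of 4.87, 6.43 and 6.34 in p45-/-, against 5.24, 6.57 and 6.33 in WT. The position of its probe relative to the deleted part is not known, so it does not check the labels. Of 12 megakaryocyte markers 12 were well above background on all arrays, and 10 were lower in mean in p45-/-, with a median of -0.40. They summed to scaled linear levels of 989, 2105 and 1561 on p45-/- arrays 1, 2 and 3, against 1220, 2123 and 2073 on WT arrays 1, 2 and 3. WT array 1, on which the interferon-stimulated genes were highest, thus had the lowest megakaryocyte sum of the WT arrays, with a median of -1.42 against the mean of the other WT arrays, and p45-/- array 1 was the lowest of all for 11 of the 12. Macrophage and monocyte markers, of which 17 of 19 were tested, summed to 303 to 475 in p45-/- and 309 to 1062 in WT. The highest sum was on WT array 1, and most of it came from Fcgr1 and Ly6c2, at levels of 8.45 and 8.29. WT array 1 held 8 of 17 highest values and p45-/- array 2 held 5, among them Adgre1 and Csf1r. In mean 9 of 17 were lower in p45-/-, and Cd163 was not above background on any array. Of 11 dendritic cell markers 7 were tested, with Cd209a not above background. They summed to 51.5 to 78.7 in p45-/- and 67.6 to 295 in WT, highest on WT array 1. These sums do not stand apart from the interferon-stimulated genes, since Bst2, itself a member, made up most of each. Irf8 is also interferon-related. WT array 1 was the highest array for 3 of the 7 markers, Bst2 and Irf8 among them. Lymphoid markers, 4 of 10 tested, summed to 5.06 to 6.41 in p45-/- and 4.25 to 18.8 in WT, with Cd79a, Ncr1, Klrb1c, Gzma and Rag1 not above background on any array. Neutrophil markers, 10 of 12 tested, summed to 495 to 996 in p45-/- and 621 to 1163 in WT. In mean 10 of 10 were lower in p45-/-, with a median of -0.79. Without overlap 4 of 10 were lower, beside 8.44% of all genes. Of all 18210 genes tested 9751 were lower in mean in p45-/- and 8459 higher. Erythroid markers, 12 of 13 tested, summed to 139 to 1002 in p45-/- and 95.2 to 367 in WT, and 12 of 12 were higher in mean in p45-/-. Epb42, Rhag and Ermap among them were well above background on only 2 WT arrays. They passed the probe filter through p45-/- alone, which favours a higher p45-/- mean. Hepatocyte markers summed to 46.8 to 173 in p45-/- and 37.2 to 65.0 in WT, with 8 of 8 higher in mean in p45-/-, and stromal and endothelial markers to 10.8 to 28.6 in p45-/- and 12.3 to 20.1 in WT. The part of these cell types and of array quality in the interferon-stimulated genes was not tested.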

How the data were processed

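Per the labels' protocols, each culture's total RNA was labelled with Cy3 for a single-colour array from Agilent. Per the file headers, the spots were read with Feature Extraction 10.7.3.1, whereas the submitters' processing notes name 10.1. Processed intensities as deposited are linear, with the background already subtracted within each array, per the file headers, and arrays were not scaled to each other. The deposited value table repeats these intensities to within 0.497%, uncentred, with column medians of 22.6 to 46.3.

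From the intensities, log2 values were taken after control spots were left out and flagged spots (32 to 80 per array) set to missing, and spots of a probe were averaged. Each array's 75th percentile over its probes was subtracted. No spot was saturated, and 58.3% to 65.3% of spots per array were well above background. A probe had to be well above background on every array of 1 group or both, which 23957 of 41174 were. Symbols were looked up by unversioned RefSeq accession in a GRCm38.p6 gene table, which named 26690 probes and left 14484 unnamed. The brightest kept probe stood for a gene.

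The two-sided test was limma's (version 3.58.1, under R 4.3.3), lmFit followed by eBayes, with 4 residual degrees of freedom, no block and Benjamini-Hochberg adjustment over all genes. The fit was tested on simulated data. The p-values measure the spread between 3 arrays a group, whose number limits the precision.

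The replicate numbers occur in both groups. The deviations of same-numbered arrays from their group means correlated at 0.647, 0.589 and 0.270 over genes, each over the limit of 0.1 for a pairing. However, p45-/- array 3 correlated more with WT array 2, at 0.616. On this evidence from the data the cultures were taken as paired in the same-numbered differences and in the replicate block. The main fit left the pairing out, and SEs, intervals and adjusted p come from it unless another setting is named. Adding that block leaves 2 residual degrees of freedom.

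The members and the 14 gene lists were chosen with earlier results of these data known, among them that interferon response genes were lower in p45-/-, so the direction given here is not independent support for it. Named were all members found, Nfe2, the core genes Irf1, Irf3, Ifnar1, Ifnar2, Jak1 and Tyk2, and from each other pathway list its called genes or else the 2 with the smallest unadjusted p. A further core gene is not reported here.

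Alternatives were the replicate or slide block, values within a slide, quantile normalization, median scaling, normexp with an offset of 50, the value table, other probe filters and summaries, flagged spots kept, array weights, and each array left out. The normexp alternative used the median spot intensity, because the mean intensity was not among the columns used here.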

Additional observations from a re-analysis of the deposited data

How the results depend on the processing

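The 30 interferon-stimulated genes had 0 calls by limma in all 19 alternatives with a test, and their median difference stayed between -1.48 and -0.38. All 30 were lower in mean in 19 of 20 alternatives, the exception being Irf9 without WT replicate 1. The count of genes whose groups do not overlap was 1 with quantile normalization (8.02% of all genes), 25 with median scaling (11.7%) and 15 with both groups without replicate 1 (21.2%). Leaving out 1 array gave counts of 7 to 25, with 15 without p45-/- replicate 1 (11.6% of all genes) and 14 without p45-/- replicate 2 (13.7%). It was 25 without WT replicate 2 (11.0%) and 7 without WT replicate 1 (17.4%). The count also stayed at 7 without p45-/- replicate 3 (15.4%) or WT replicate 3 (11.6%). Such counts cover fewer arrays, and the share of all genes was above the 8.44% of the main fit each time. Why the count rose for some arrays only was not tested. Median scaling moved the median of all genes from -0.05 to -0.56. Relative to that median the 30 genes had a median of -0.92 in both scalings. This sameness is arithmetic and no check, since the scalings differ only by a constant for each array. With the replicate block the smallest adjusted p was 0.116 by limma, and no call changed. Leaving out 1 array gave differences of -2.48 to 1.03 for Ifnb1, -0.65 to 0.0238 for Irf9 and -0.57 to 0.34 for Nfe2. Ifnb1 was 0.46 with both groups without replicate 1. Nfe2 was 0.17 with quantile normalization, 0.0218 with array weights and 0.0041 within slide 1; the cause was not tested. When arrays were weighted (0.0967 for p45-/- array 1, 0.397 for WT array 1), Mlkl passed the threshold at -1.36 (adjusted p = 0.0391 by limma), and 508 genes were called in all against 0 without weights. The median scaling, array weights, replicate block, WT replicate 1 and both-groups alternatives called 10, 508, 5, 1 and 18 of all genes. Within slide 1 no test was possible, with 1 array a group. Of 600 values of single members under the alternatives 599 kept their direction and side of the threshold.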
